A study of Mus musculus with 24 samples.

Results

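The interferon-stimulated antiviral genes described here are 39 genes taken by symbol out of the 52636 genes measured in cultured mouse macrophages. Interferons are secreted proteins that bind receptors on the cell surface and activate STAT transcription factors. Type I interferons act through a complex that holds Stat2 and Irf9 and binds a short promoter element called the interferon-stimulated response element (ISRE), whereas interferon gamma acts mainly at gamma-activated sites (GAS). The genes that respond encode RNA sensors, proteins that block viral translation, replication or release, and the ubiquitin-like modifier ISG15, and macrophages are known for expressing them at a low level even without infection.

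Bone marrow-derived macrophages were grown from 6 mice aged 8-12 weeks, over 6 days in medium conditioned by L cells, and poly(A) RNA was sequenced. The controls were the +/fl mice (HET-97, HET-102, HET-129), with 1 floxed and 1 intact copy of Elavl1. The conditional knockouts were the fl/fl mice (KO-176, KO-281, KO-301), with both copies floxed. All 6 mice, controls included, carried the Csf1r-iCre driver, which acts in macrophages and related myeloid cells, and ribosomal protein L10a fused to EGFP. Elavl1 encodes HuR, a protein that binds and stabilises many messenger RNAs, and the study asked how hypoxia and HuR change total and translated RNA. Plates of each mouse were held for 18 h at 20% oxygen (normoxia) or 1% oxygen (hypoxia), both with 5% CO2. Each lysate was divided for total RNA and for ribosome-bound RNA pulled down through the tagged L10a (translating ribosome affinity purification, TRAP). The 24 libraries formed 8 groups of 3 mice. Below, 6 values in a row always stand for the controls HET-97, HET-102, HET-129, then the fl/fl mice KO-176, KO-281, KO-301.

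Levels are TPM, a share of transcripts scaled to gene length and to a fixed sum per library, as deposited, so depth was unknown and no counting interval can be given. Differences are in log2(TPM + 1), which understates the change of low genes, and were tested with limma, a linear model fitted across all genes, with Benjamini-Hochberg adjustment and a threshold of 0.05. A gene was tested in a fraction if 3 of its 12 libraries reached 1 TPM, which left 12403 genes (total RNA) and 11676 (TRAP RNA), and all 39 members passed this filter in both. Replicates are mice, and an exact permutation test of 3 mice against 3 cannot give a p below 0.1. In bulk RNA, fewer cells expressing a gene and less RNA per cell cannot be told apart.

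Elavl1 itself did not separate the genotypes. Its level in total RNA was 29.9, 30.8, 35.7, 35.1, 34.8 and 36.1 TPM in normoxia and 21.2, 59.8, 24.9, 29.4, 34.9 and 26.1 TPM in hypoxia. The fl/fl minus +/fl difference was 0.14 ± 0.16 (log2, SE) in normoxia and -0.08 ± 0.39 in hypoxia, with adjusted p of 0.88 and 0.991 (limma). In TRAP RNA it was 18.1, 16.8, 12.2, 17.4, 17.7 and 0.840 TPM in normoxia and 17.2, 16.3, 10.5, 1.75, 23.5 and 12.2 TPM in hypoxia, low in 1 library each of KO-301 and KO-176. A level over the whole gene may include transcripts from a recombined copy, so fl/fl below means the mice labelled fl/fl, and every direction between genotypes rests on those labels. All 8 macrophage markers measured reached 1 TPM in all 24 libraries, with lowest values from 1.22 TPM (Mertk) to 8188 TPM (Lyz2). S100a8, Tcf4 and Cox6a2, from lists of other cell types, did so too. This threshold alone therefore does not identify the cells, and the cell type is the labelled one. Mice HET-129 and KO-301, 1 of each genotype, stood apart from the other 4 mice in the members' levels in both oxygen levels and both fractions, and comparisons are therefore given with and without them.

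The promoters of several members carry the letters of the element that interferon-activated factors bind, and 7 of these, from genes described below, are printed. Irf7, Ifit2, Cmpk2 and Isg20, also described below, had no ISRE match and are not printed. The sequences are the 250 bases upstream of the annotated start from RefSeq on the mouse build GRCm38.p6, read 5′ to 3′ on the strand of the gene, with capitals marking matches to the motif GAAANNGAAA or its other strand TTTCNNTTTC (ISRE letters), and in Bst2 also to TTCNNNGAA (GAS letters). They lie at chr4:156200819-156201068 on the minus strand (Isg15), chr19:34583279-34583528 on the plus strand (Ifit3), chr19:34607707-34607956 on the plus strand (Ifit3b), chr12:26456453-26456702 on the minus strand (Rsad2), chr8:71537473-71537722 on the minus strand (Bst2), chr3:142620413-142620662 on the plus strand (Gbp2) and chr5:92348890-92349139 on the minus strand (Cxcl10).
Isg15: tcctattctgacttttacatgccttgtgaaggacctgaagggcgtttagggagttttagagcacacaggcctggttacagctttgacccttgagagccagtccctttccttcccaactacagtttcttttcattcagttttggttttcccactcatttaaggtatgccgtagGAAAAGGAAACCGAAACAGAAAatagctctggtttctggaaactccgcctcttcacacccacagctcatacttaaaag
Ifit3: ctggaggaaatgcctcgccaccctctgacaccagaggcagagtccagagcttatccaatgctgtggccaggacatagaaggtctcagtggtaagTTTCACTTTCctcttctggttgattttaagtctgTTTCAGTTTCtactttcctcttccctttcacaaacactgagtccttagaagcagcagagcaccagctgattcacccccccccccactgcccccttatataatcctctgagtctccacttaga
Ifit3b: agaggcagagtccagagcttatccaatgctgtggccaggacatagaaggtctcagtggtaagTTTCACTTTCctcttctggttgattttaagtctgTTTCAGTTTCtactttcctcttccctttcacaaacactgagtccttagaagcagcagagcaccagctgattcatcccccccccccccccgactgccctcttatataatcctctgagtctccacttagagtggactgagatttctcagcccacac
Rsad2: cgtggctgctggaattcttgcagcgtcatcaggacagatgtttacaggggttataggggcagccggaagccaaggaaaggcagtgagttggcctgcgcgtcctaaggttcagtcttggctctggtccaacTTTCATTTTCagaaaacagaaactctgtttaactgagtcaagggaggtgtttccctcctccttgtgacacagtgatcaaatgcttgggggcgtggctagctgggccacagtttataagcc
Bst2: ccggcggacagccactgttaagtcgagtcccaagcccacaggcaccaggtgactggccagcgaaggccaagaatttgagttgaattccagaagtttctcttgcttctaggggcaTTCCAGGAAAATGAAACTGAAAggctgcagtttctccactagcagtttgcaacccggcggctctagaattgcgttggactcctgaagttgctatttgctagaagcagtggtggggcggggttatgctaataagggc
Gbp2: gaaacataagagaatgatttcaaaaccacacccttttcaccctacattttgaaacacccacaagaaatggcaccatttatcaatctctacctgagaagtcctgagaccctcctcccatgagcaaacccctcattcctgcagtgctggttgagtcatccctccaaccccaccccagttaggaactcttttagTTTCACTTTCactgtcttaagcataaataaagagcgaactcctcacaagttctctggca
Cxcl10: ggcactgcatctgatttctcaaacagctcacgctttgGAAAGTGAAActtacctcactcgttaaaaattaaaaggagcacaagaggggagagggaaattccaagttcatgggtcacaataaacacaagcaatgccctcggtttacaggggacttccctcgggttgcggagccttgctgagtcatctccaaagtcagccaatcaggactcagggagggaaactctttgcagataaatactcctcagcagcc

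Isg15 held 3 overlapping ISRE matches, starting 78, 72 and 66 bases before the gene start. Ifit3 and Ifit3b, neighbouring copies of one gene, shared an identical run of 169 bases that holds 2 ISRE matches. Bst2 held 2 ISRE matches, and its GAS match overlaps the first of them. Over the whole window of RefSeq's table, which runs from 250 bases before to 50 after the start, 30 members were matched, with 36 promoters. ISRE letters on either strand stood in 18 of these 30 (60.0%), against 3.99% of all 27025 genes in the table and 3.44% of its 32851 promoters. GAS letters stood in 7 of the 30 (23.3%), against 9.55% of genes and 8.3% of promoters. Members without an ISRE match in this window included Irf7, Oasl2 and Ifi47, and nothing about a factor follows from that. Dhx58, Zbp1, Mx1, Mx2, Oas2, Rtp4, Parp9, Parp14 and Usp18 were not among the matched members. A match describes these letters only.

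The members' levels differed between mice far more than between oxygen levels, and they did so together. In normoxic total RNA the 39 members summed to 1619, 1299.9, 8181, 1677, 2958 and 18047 TPM, which was 0.13% of the library in HET-102 and 1.80% in KO-301. In hypoxic total RNA the sums were 1563, 1135, 7947, 1754, 2866 and 18354 TPM. The order of the 6 mice was the same at both oxygen levels. TRAP RNA gave 1506, 1232, 9353, 1469, 3608 and 18055 TPM in normoxia and 1396, 1098, 8256, 1522, 3020 and 19258 TPM in hypoxia. KO-301 was the highest, HET-129 the second and KO-281 next in each of these 4 sets, while HET-97 and KO-176 lay close together. The ratio of the highest to the lowest mouse in normoxic total RNA ran from 1.76 for Irf9 to 135 for Ifit3b.

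**Figure D1:**
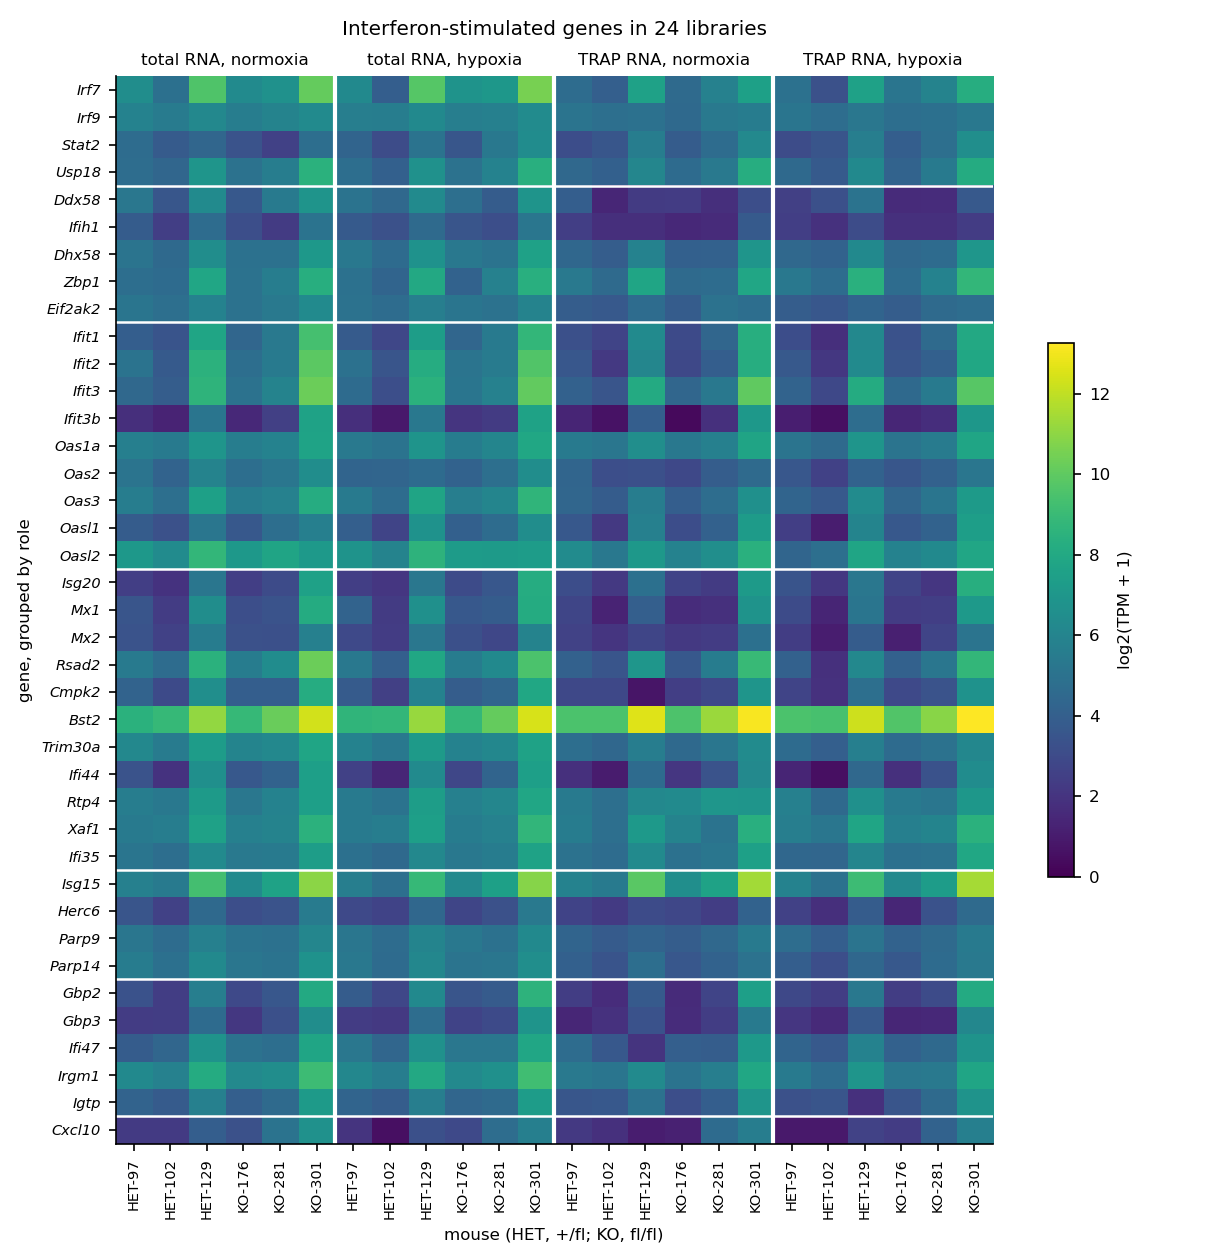
Heat map of the 39 members (rows, grouped by role) in the 24 libraries (columns, by mouse within fraction and oxygen level), coloured by log2(TPM + 1). The columns of HET-129 and KO-301 are lighter than those of the other 4 mice for most members in every block, while the normoxic and hypoxic blocks of a fraction look alike.

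Among the genes that induce or restrain the response, Irf7 encodes the transcription factor that drives the interferon alpha genes. It stood at 90.1, 29.2, 769, 81.2, 105 and 1113 TPM in normoxic total RNA and 77.3, 14.3, 858, 110.4, 127 and 1516 TPM in hypoxic total RNA. HET-129 and KO-301 lay above all others, HET-102 below, and the 2 genotypes overlapped. Usp18, which removes ISG15 from proteins and damps receptor signalling, followed the same order with 25.6, 20.1, 119, 30.5, 47.6 and 352 TPM in normoxia. Irf9, the DNA-binding subunit of the type I complex, had the narrowest range of all members, 57.8, 45.3, 73.0, 48.0, 59.3 and 79.7 TPM. Stat2, which joins it in that complex, did not follow the order in total RNA, where normoxia gave 24.7, 13.0, 20.0, 9.61, 4.99 and 26.4 TPM and hypoxia 18.1, 7.496, 32.3, 10.8, 39.03 and 87.7 TPM. In TRAP RNA Stat2 did follow it, with 7.78, 10.9, 48.8, 13.6, 25.1 and 74.0 TPM in normoxia and 7.39, 10.3, 49.6, 14.6, 27.4 and 93.6 TPM in hypoxia. Stat2 was the only member in total RNA with an oxygen change in 1 mouse, 2.74 (log2) in KO-281, that exceeded the range between mice, 2.18.

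The RNA sensors differed among themselves. Zbp1, a sensor of Z-form nucleic acid, was at 26.7, 24.1, 227, 30.6, 49.0 and 317 TPM in normoxic total RNA, so HET-129 and KO-301 held several times the level of the rest. Dhx58 (LGP2, a regulator of the other sensors) was at 33.7, 22.6, 88.6, 29.8, 29.9 and 133 TPM. Eif2ak2, the kinase PKR that stops translation on double-stranded RNA, had a narrow range of 35.3, 28.0, 58.9, 31.4, 40.8 and 79.6 TPM. Ddx58 (RIG-I) gave 37.7, 10.6, 80.6, 11.4, 43.5 and 115 TPM and Ifih1 (MDA5) 13.3, 4.54, 25.3, 7.96, 3.88 and 32.5 TPM in normoxic total RNA, with KO-301 first and HET-129 second in both. In TRAP RNA these 2 cytosolic RNA helicases were low and in no such order, Ddx58 at 14.6, 1.64, 3.97, 4.20, 2.5 and 7.98 TPM and Ifih1 at 4.52, 2.48, 2.51, 1.90, 2.11 and 12.5 TPM in normoxia.

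The Ifit genes, whose products bind viral RNA and block its translation, were among the members with the widest ranges. Ifit3 stood at 21.1, 14.0, 391, 30.5, 59.1 and 1259 TPM in normoxic and 24.3, 8.06, 357, 35.3, 55.6 and 1090.2 TPM in hypoxic total RNA, a ratio of 89.97 between KO-301 and HET-102 in normoxia. Ifit3b was far lower at 2.49, 1.49, 34.6, 1.93, 4.73 and 202 TPM, with the widest ratio of all members. Since 51.2% of the 50-base words of Ifit3 transcripts recur in Ifit3b, how reads were split between the copies is uncertain. Ifit1 and Ifit2 had the same order of mice at the top, Ifit1 with 14.6, 9.89, 221, 20.0, 40.3 and 661 TPM in normoxia. For Ifit2 the normoxic values were 32.1, 12.5, 363, 26.6, 41.2 and 955 TPM. The oligoadenylate synthetases, which activate RNase L to cut RNA, varied less. Oas1a stood at 52.3, 41.2, 121, 48.3, 57.6 and 204 TPM, and 57.6% of its 50-base words are shared with Oas1g, so its split is uncertain too. Oas3 was at 48.0, 28.2, 187, 46.2, 55.6 and 292 TPM and Oas2 at 33.1, 17.4, 59.2, 26.7, 36.0 and 88.8 TPM, again highest in KO-301. Oasl1, which in mice represses Irf7 translation, was highest in KO-301 in normoxia (13.3, 8.64, 36.5, 11.5, 26.9 and 52.4 TPM) and in HET-129 in hypoxia (15.3, 5.56, 108, 15.7, 24.5 and 90.5 TPM). An antisense gene opposite Oasl1, Gm13822, reached 106 TPM, and the strand setting of the authors' counting is not known. Oasl2 did not follow the common order in total RNA, with 136, 83.8, 438, 133, 217 and 144 TPM in normoxic and 111, 59.4, 386, 156, 150.1 and 161 TPM in hypoxic total RNA, where HET-129 was highest and KO-301 came after KO-281 in normoxia and second in hypoxia. In TRAP RNA Oasl2 had KO-301 first, at 83.7, 38.2, 133, 57.3, 93.8 and 336 TPM in normoxia.

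Among the other effectors, Bst2 (tetherin, which holds budding virus at the cell surface) was the most abundant member. Its total RNA level was 357, 477, 2239, 467, 1204 and 5191 TPM in normoxia and 416, 438, 2399.9, 449, 1113 and 5609 TPM in hypoxia. Rsad2 (viperin, which makes a nucleotide that ends viral RNA chains) was at 41.7, 24.8, 360.1, 47.1, 88.0 and 1231 TPM in normoxia and 39.4, 15.4, 240.0, 46.7, 76.9 and 723 TPM in hypoxia. For both genes KO-301 and HET-129 held the top places, in that order. Cmpk2, a nucleotide kinase gene beside Rsad2 on chromosome 12, was at 17.8, 6.80, 93.4, 14.5, 14.7 and 293 TPM in normoxia. In normoxic TRAP RNA, however, Cmpk2 in HET-129 was the lowest of the 6 mice (6.38, 6.32, 0.700, 4.57, 6.43 and 119 TPM). Mx1, a GTPase that restricts influenza virus in mice, was at 10.3, 4.08, 89.9, 8.21, 9.68 and 285 TPM in normoxic total RNA. Its relative Mx2, annotated as a polymorphic pseudogene, was at 9.62, 4.95, 45.7, 8.75, 8.53 and 54.0 TPM. The exonuclease gene Isg20 stood at 4.58, 2.89, 36.0, 4.56, 7.21 and 195 TPM and Ifi44 at 9.52, 2.80, 96.2, 11.5, 17.2 and 179.8 TPM. Each of these 4 genes had KO-301 first and HET-129 second in normoxic total RNA. The ranges were narrower for Xaf1, a pro-apoptotic gene, from 42.9 to 369.9 TPM (median 56.6), Trim30a, from 44.7 to 224 TPM (median 71.2), Rtp4, a receptor chaperone, from 37.3 to 181 TPM (median 52.8), and Ifi35, from 27.2 to 168 TPM (median 40.7).

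The ISG15 system showed both the wide and the narrow pattern. Isg15 itself stood at 53.6, 43.6, 638, 79.5, 196 and 1986 TPM in normoxic and 50.8, 28.1, 467, 74.5, 187 and 1871 TPM in hypoxic total RNA. KO-301 was about 45.5 times HET-102 in normoxia, and KO-281 came after HET-129. Herc6, the main ISG15 ligase of mice, ranged from 4.93 to 45.0 TPM (median 9.76) in the same set. The ADP-ribosyltransferase family members Parp9 (24.9 to 68.1 TPM, median 34.2) and Parp14 (28.5 to 107 TPM, median 41.8) had SDs between mice of 0.57 and 0.73 (log2), above the 0.326 over all genes and below the members' median of 1.38. Dtx3l, which overlaps Parp9 on the other strand, averaged 26.6 TPM.

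All 5 GTPase genes that act on the vacuoles of intracellular pathogens followed the common order in total RNA. Gbp2 was at 9.17, 4.37, 50.8, 6.74, 11.1 and 261 TPM and Gbp3 at 4.09, 4.23, 23.9, 3.43, 8.39 and 91.3 TPM in normoxia. Irgm1 was at 78.5, 55.9, 282, 75.4, 89.0 and 539 TPM, Igtp at 18.0, 13.1, 52.9, 15.4, 23.0 and 149 TPM and Ifi47 at 13.4, 19.8, 111, 30.6, 26.8 and 219.9 TPM. KO-301 thus exceeded every other mouse for all 5. In hypoxic TRAP RNA, Igtp in HET-129 was the lowest (8.78, 10.1, 2.58, 10.4, 22.7 and 111 TPM). Its same-strand neighbour Irgm2, which shares 11.8% of Igtp's 50-base words, was at 0.0189 TPM in that library. Cxcl10, a chemokine that attracts T cells, had another order of mice. It stood at 3.79, 3.85, 14.6, 8.75, 31.7 and 101.99 TPM in normoxic and 3.06, 0.464, 8.56, 6.58, 26.1 and 51.2 TPM in hypoxic total RNA, with KO-281 second and HET-129 after it.

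**Figure D2:**
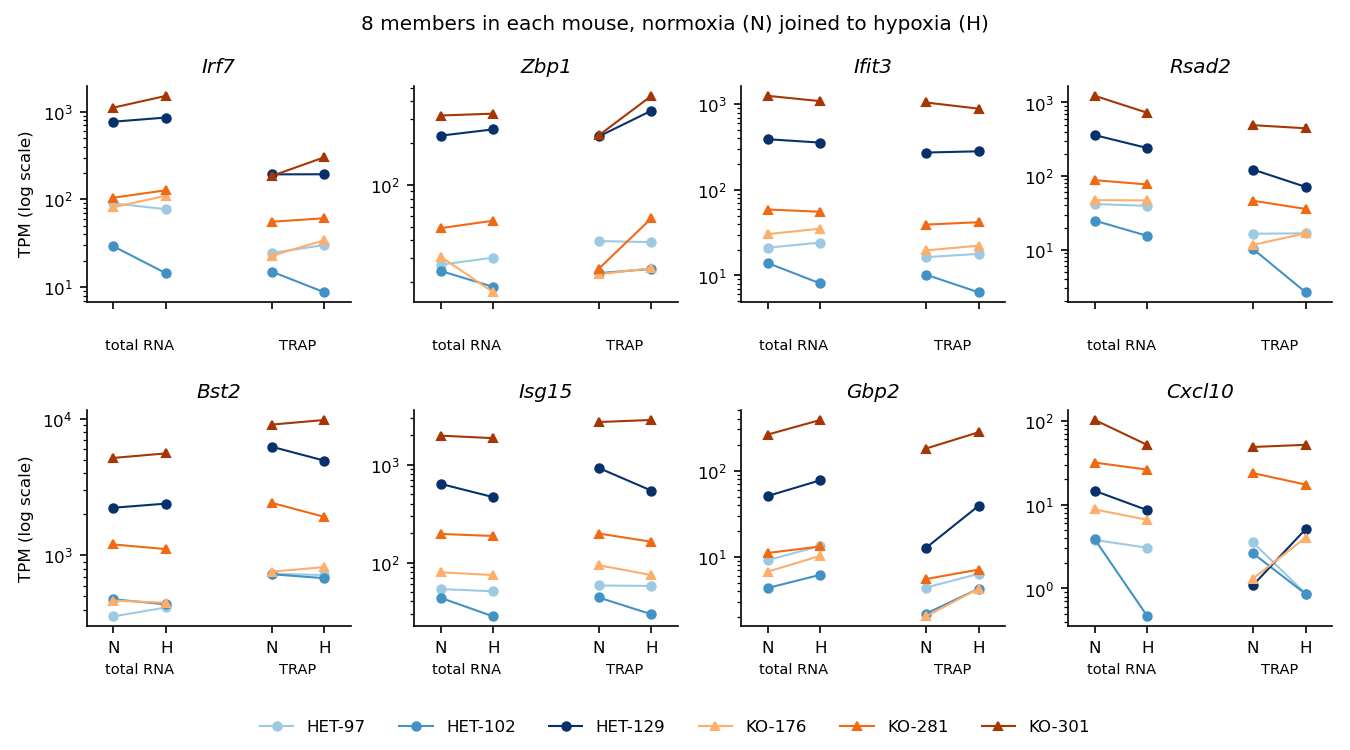
TPM (log scale) of 8 members in each of the 6 mice, with normoxia (N) joined to hypoxia (H), in total and TRAP RNA. Blue circles are +/fl controls and orange triangles fl/fl mice. The lines of KO-301 and HET-129 lie above the others for Irf7, Zbp1, Ifit3, Rsad2, Bst2, Isg15 and Gbp2, and those of KO-301 and KO-281 for Cxcl10.

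Counted over members, KO-301 was the highest mouse for 38 of 39 in normoxic total RNA, where it was highest for 15% of all genes tested. HET-129 came second behind it for 36 of 39 members, against 7.72% of all genes. HET-102 was the lowest for 31 of 39, against 7.92%. The hypoxic total RNA gave 37 (18.5% of all genes), 34 (8.97%) and 33 (9.0%) for the same 3 counts. TRAP RNA gave 35 (16.3%), 28 (5.42%) and 26 (6.62%) in normoxia and 37 (18.3%), 33 (8.38%) and 30 (11.3%) in hypoxia. KO-301 first and HET-129 second in all 4 sets held for 23 of 39 members (59.0%), against 246 of the 11420 genes tested in both fractions (2.15%). The other effectors held this order most often (9 of 11), then the Ifit and oligoadenylate synthetase genes (6 of 9) and the GTPases (3 of 5), whereas it held for 1 of the 4 inducers. The 16 members that broke it in at least 1 set were Irf7, Irf9, Stat2, Ddx58, Ifih1, Eif2ak2, Oas2, Oasl1, Oasl2, Cmpk2, Rtp4, Parp9, Parp14, Ifi47, Igtp and Cxcl10. The order counted was taken from the members' own levels, so its higher share among them than over all genes is no independent evidence. These counts are descriptions of 6 animals, and no p is given for them.

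For nearly all members the spread between mice exceeded the oxygen effect. On the log2 scale the SD between the 6 mice, each averaged over oxygen levels, had a median over the members of 1.38 in total RNA and 1.32 in TRAP RNA, against 0.326 and 0.391 over all genes tested. The median absolute oxygen change within a mouse was 0.222 (members) and 0.218 (all genes) in total RNA, and 0.305 and 0.296 in TRAP RNA. The range between mice exceeded the oxygen change in each single mouse for 38 of 39 members (97.4%) in total RNA, against 73.5% of all genes, and for 36 of 39 (92.3%) in TRAP RNA, against 63.9%. The exceptions were Stat2 in total RNA and Ddx58, Ifih1 and Ifi47 in TRAP RNA. By SD between mice, the top 5% of genes held 31 members (total RNA) and 29 members (TRAP RNA).

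**Figure D3:**
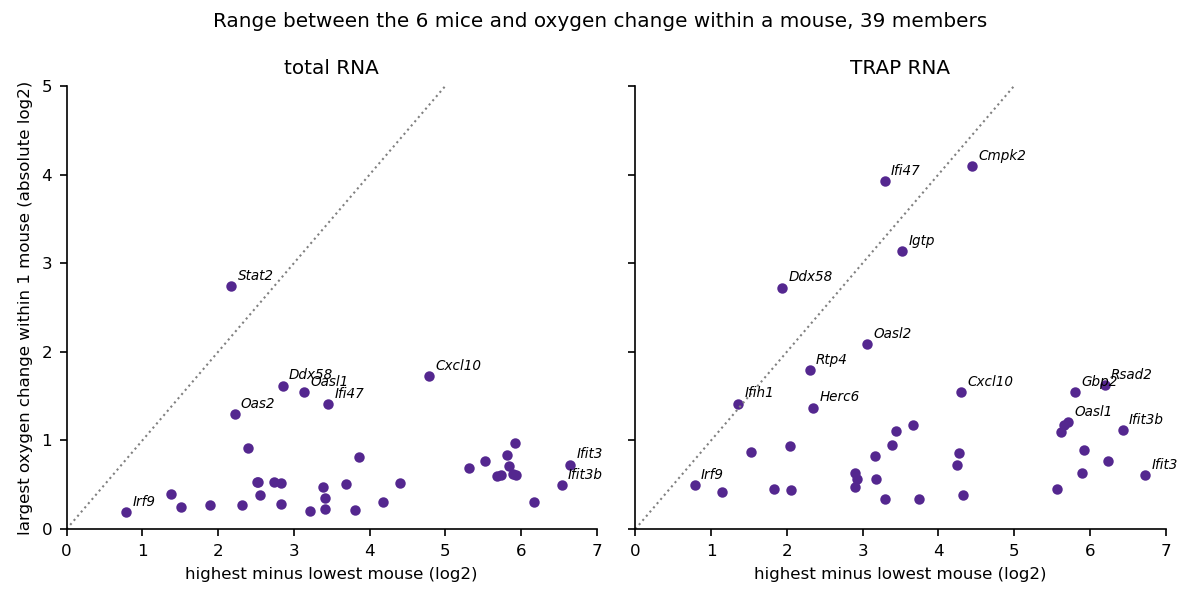
Largest oxygen change within any 1 mouse (y axis, absolute log2) against the range between the 6 mice (x axis, log2) for the 39 members, in total RNA (left) and TRAP RNA (right). The dotted line marks equality, and 38 points in total RNA and 36 in TRAP RNA lie below it.

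Of 10 interferon genes, Ifnb1 (interferon beta) reached 1 TPM in the 4 libraries of KO-301 alone, at 3.52 and 4.72 TPM in total RNA and 5.51 and 10.5 TPM in TRAP RNA. Ifnk stayed at or under 0.199 TPM, and Ifna1, Ifna2, Ifna4, Ifna5, Ifne, Ifnl2, Ifnl3 and Ifng were listed at 0 in all 24 libraries. Of 30 further interferon-induced genes, 15 (50%) had KO-301 first and HET-129 second in all 4 sets, for example Ifi204, a sensor of DNA, at 117, 76.6, 496, 133, 115 and 916 TPM in normoxic total RNA. Receptor and signalling genes held this order in 1 of 18, nucleic acid sensing and adaptor genes in 3 of 16, and NF-kB driven inflammatory genes in 1 of 11. The NF-kB list nevertheless varied widely between mice, with a summed level in normoxic total RNA of 1015 to 7257 TPM in controls, highest in HET-129, and 781 to 10129 TPM in fl/fl mice, highest in KO-301. Its chemokine gene Ccl5 stood at 9.96, 9.87, 3709, 23.6, 80.9 and 7734 TPM, and thus made up much of the sums of HET-129 and KO-301. The median SD between mice over the 12 tested genes of this list was 0.896 (log2), against 0.326 over all genes, and 4 of the 12 stood in the top 5%. Ifnar1, a subunit of the type I receptor, was at 70.3, 45.8, 42.8, 52.3, 27.6 and 31.3 TPM and the kinase gene Jak1 at 65.9, 42.5, 47.4, 49.5, 42.9 and 39.1 TPM, neither highest in KO-301.

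Markers of other cells moved with the same mice in part. The summed level of 6 fibroblast markers in normoxic total RNA was 2.70 to 30.9 TPM in the controls, highest in HET-129, and 3.95 to 60.7 TPM in fl/fl mice, highest in KO-301, and in TRAP RNA it did not pass 3.29 TPM. Of these, Col1a1 and Col1a2 were the most abundant, while Pdgfra did not pass 0.117 TPM. The sum of 8 neutrophil markers was 5.84 to 23.7 TPM and 6.75 to 63.3 TPM in the same 2 groups, again highest in HET-129 and KO-301, and it came mainly from S100a8 and S100a9, with Ly6g at 0 in all 24 libraries and Mpo and Elane never above 0.424 TPM. Of 6 plasmacytoid dendritic cell markers, Klk1 was at 0 and Siglech at most 0.498 TPM, while Tcf4 and Cox6a2 were present in all libraries, with a sum of 60.7 to 82.1 TPM in normoxic controls and 66.1 to 108 TPM in fl/fl mice. The 6 markers each of T and NK cells and of conventional dendritic cells summed to at most 0.299 and 1.10 TPM in any library. Among markers of B cells, Cd79a and Pax5 were at 0 in all libraries while Cd79b reached 10.2 TPM, and of the 5 erythroid markers none passed 1.82 TPM. In total RNA the 8 macrophage markers summed to 22773 to 26686 TPM in normoxic controls and 14252 to 20323 TPM in fl/fl mice. In hypoxia the sums were 24568 to 26205 and 16162 to 21213 TPM. The ranges overlapped in normoxic TRAP RNA, at 11421 to 20006 and 10829 to 12886 TPM. Lyz2 made up most of these sums, at 8188 to 22936 TPM over the 24 libraries, while Cd68 did not pass 2881 TPM. The part of any of these in the members' levels was not tested. Measures of library makeup moved with the same mice. In normoxic total RNA mitochondrial transcripts took 2.56% (HET-129) and 2.46% (KO-301) of the library, against 3.72 to 4.74% in the other 4 mice, and in hypoxia 2.39% and 1.2%, against 3.0 to 4.56%. Ribosomal protein transcripts took 9.95% and 8.84% in normoxic total RNA, against 11.1 to 16.3% in the other mice, and 20.3% and 15.2% in normoxic TRAP RNA, against 23.2 to 26.7%. HET-129 and KO-301 also had the fewest genes at 1 TPM in all 4 sets, 11491 and 11250 in normoxic total RNA against 11521 to 11745. The part of these in the members' levels was not tested.

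Hypoxia moved the members little and in no common direction. Over 6 mice, with the mouse as a block, Gbp2 alone of the 39 members passed the test in total RNA, against 3.97% of all genes (492 of 12403). Gbp2 encodes a guanylate-binding protein. It rose from 9.17, 4.37, 50.8, 6.74, 11.1 and 261 TPM in normoxia to 13.4, 6.21, 77.3, 10.3, 13.2 and 385 TPM in hypoxia, higher in 6 of 6 mice. The log2 difference was 0.48 ± 0.07 (SE) with an adjusted p of 0.0207 (limma), a small step beside the range between mice. The call was lost without any of 5 mice, with an adjusted p of 0.0687 (HET-97 left out), 0.0615 (HET-102 left out), 0.064 (HET-129 left out), 0.0734 (KO-176 left out) or 0.0583 (KO-301 left out), and was kept without KO-281 at 0.0283. Without HET-129 and KO-301 together it was 0.147. Calls over all genes fell in the same refits, from 194 higher and 298 lower with all 6 mice. They were 25 and 40 (HET-97 left out), 22 and 26 (HET-102), 30 and 63 (HET-129), 25 and 29 (KO-176) and 49 and 91 (KO-301). Without KO-281 they were 111 and 113, and without HET-129 and KO-301 together 4 and 4.

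The remaining 38 members gave differences from -0.71 to 0.69 in total RNA, of which none passed. An unadjusted p under 0.05 was reached by 12 members, Gbp2 included, against 22.6% of all genes. The same direction in all 6 mice was seen for 6 members, against 16.2% of all genes, with Gbp2 and Dhx58 higher and Cxcl10, Rsad2, Isg15 and Trim30a lower. Cxcl10 had the lowest difference, -0.71 ± 0.20 with an adjusted p of 0.0894 (limma), and was lower in 6 of 6 mice. Rsad2 gave -0.38 ± 0.11 and Isg15 -0.23 ± 0.09, with adjusted p of 0.105 and 0.175. Dhx58 gave 0.26 ± 0.07 with an adjusted p of 0.0927, and it passed under quantile normalisation (0.0449) and with libraries centred on their median gene (0.0489). The median over the 39 members was -0.04 against -0.01 over all genes. None of the 18 receptor and signalling genes, 16 sensing and adaptor genes or 30 other interferon-induced genes passed, while 3 of 12 NF-kB driven genes did, all lower: Tnf (-0.97 ± 0.09), Cxcl2 (-1.0 ± 0.18) and Nfkbia (-0.75 ± 0.09), with adjusted p of 0.00793, 0.0326 and 0.0132.

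In TRAP RNA no member passed over 6 mice (limma), against 0.0343% of all genes, and 6 had an unadjusted p under 0.05, against 14.7%. Dhx58, Parp9, Mx1 and Gbp2 were higher in 6 of 6 mice, 4 of 39 members against 10.2% of all genes. Gbp2 stood at 4.41, 2.20, 12.7, 2.05, 5.54 and 179.8 TPM in normoxia and 6.36, 4.29, 39, 4.28, 7.13 and 278 TPM in hypoxia, a difference of 0.74 ± 0.17 with an adjusted p of 0.177. Zbp1, at 39.6, 23.3, 224, 22.9, 25.0 and 228 TPM and 38.9, 24.9, 343, 25.2, 57.8 and 439 TPM, gave 0.49 ± 0.17 with an adjusted p of 0.259. Cxcl10, lower in total RNA of all mice, was higher in 3 of 6 in TRAP RNA (0.01 ± 0.38). The members' median was 0.02 against 0.03 over all genes.

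No member passed a test of the oxygen effect within either genotype. In the 3 controls no member passed in total RNA, against 0.0403% of all genes, and 12 had an unadjusted p under 0.05, against 13.1%. There 28 members were lower in hypoxia and the median was -0.16, against -0.03 over all genes. In the 3 fl/fl mice no member passed, against 0.0242%, and 6 had an unadjusted p under 0.05, against 15.9%, with 21 members higher and a median of 0.06 against 0.01. The median over members was -0.15, -0.22 and -0.10 in the 3 controls and 0.11, 0.08 and 0.08 in the 3 fl/fl mice. Over all genes it was -0.05, -0.02 and -0.01 in controls and 0.03, -0.07 and 0.06 in fl/fl mice.

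The difference between these oxygen effects was tested directly, as fl/fl minus +/fl. In total RNA 0 of 39 members passed (limma), as did 0% of all genes, and the lowest adjusted p was 0.965. An unadjusted p under 0.05 was reached by 8 members, against 4.63% of all genes. The fitted difference was above 0 for 31 members, against 55.9% of all genes, with a median of 0.21 against 0.03. The 3 fl/fl mice lay clear of the 3 controls for 7 members, against 10.2% of all genes: Irf7, Oas1a, Isg20, Cmpk2, Rtp4, Ifi35 and Irgm1. For Isg20 the oxygen change was 0.00, 0.13 and 0.03 in the controls and 0.57, 0.58 and 0.62 in fl/fl mice, a difference of 0.53 ± 0.13. For Irf7 it was -0.22, -0.98 and 0.16 against 0.44, 0.28 and 0.45, a difference of 0.73 ± 0.27. Leaving out single mice moved the median between 0.14 and 0.23. It was 0.26 without HET-129 and KO-301.

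TRAP RNA gave no call within either genotype or between them. In controls no member passed (0% of all genes) and 6 had an unadjusted p under 0.05 (8.07%), and in fl/fl mice no member passed (0%) and 3 had one (8.87%). For the difference between genotypes 0 members passed (0%) and 0 had an unadjusted p under 0.05 (3.7% of all genes). It was above 0 for 25 members (48% of all genes), with a median of 0.09. Stat2, Ifi35, Parp14 and Igtp did not overlap between the groups, 4 members against 9.11% of all genes. For Igtp the changes were -0.25, -0.20 and -3.14 in controls, HET-129 far below the rest, and 0.33, 0.58 and -0.13 in fl/fl mice. Isg20, apart in total RNA, overlapped in TRAP RNA with changes of 0.30, -0.05 and 0.35 in controls and 0.01, -0.24 and 1.10 in fl/fl mice.

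Between genotypes, most members were higher in the fl/fl group, but no member passed and the median fell below 0 without KO-301. In normoxic total RNA the fitted fl/fl minus +/fl difference was above 0 for 36 of 39 members, against 34.3% of all genes, with a median of 0.61 against -0.13. None passed (limma; 0% of all genes), 1 (Cxcl10) had an unadjusted p under 0.05 (4.05% of all genes), and 0 had groups that did not overlap (10.2%). In hypoxic total RNA 38 members were above 0 (36.1% of all genes), the median was 0.82, none passed (0%), 1 had an unadjusted p under 0.05 (3.1%) and 0 did not overlap (8.48%). The same mice enter both comparisons. Without KO-301 the medians turned to -0.30 in normoxia and -0.12 in hypoxia. Without HET-129 they rose to 1.25 and 1.49, without KO-176 they were 1.16 and 1.35, and without HET-102 they were 0.04 and 0.24. With both HET-129 and KO-301 left out they were 0.39 and 0.59.

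**Figure D4:**
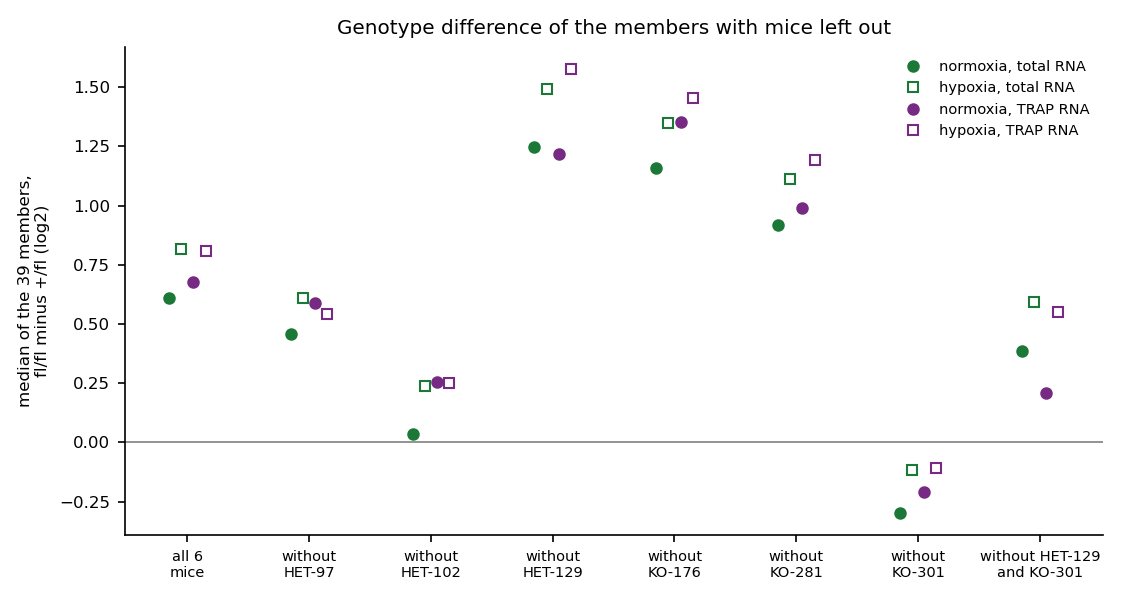
Median over the 39 members of the fl/fl minus +/fl difference (log2) with all 6 mice, with each mouse left out and with HET-129 and KO-301 left out, for both oxygen levels and both fractions. The median is below 0 only without KO-301, where the 4 values lie between -0.30 and -0.11.

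Isg15 averaged 245 ± 340 TPM (SD, n = 3) in normoxic controls and 754 ± 1068 TPM in fl/fl mice. The difference was 1.45 ± 1.43 (log2, SE) with an adjusted p of 0.867 (limma), and it was 0.12 without KO-301. Its 4 mice other than HET-129 and KO-301 were at 53.6 and 43.6 TPM (controls) against 79.5 and 196 TPM (fl/fl) in normoxia. Fitted without those 2 mice the difference was 1.35 ± 0.46, with an unadjusted p of 0.0315 and an adjusted p of 0.802 (limma). Those 2 mice were left out because of the members' own levels, which narrows the spread, so this p is no test of the genotype. Of all genes, 0 were called higher and 3 lower in that fit. Cxcl10 averaged 7.41 ± 6.21 TPM in normoxic controls and 47.5 ± 48.6 TPM in fl/fl mice. Its difference, the highest of all members, was 2.17 ± 0.89 with an adjusted p of 0.864 in normoxia and 2.52 ± 0.89 with an adjusted p of 0.982 in hypoxia. The groups overlapped in both, because HET-129 exceeded KO-176. Stat2 had the lowest value in normoxia, -0.71 ± 0.56, and a value of 0.99 ± 0.80 in hypoxia.

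In TRAP RNA most members were again higher in the fl/fl group with no member past the test, and the same lysates were used. In normoxia 37 members were above 0 (41% of all genes), with a median of 0.68. With single mice left out this median ranged from -0.21 (without KO-301) to 1.35. None passed (0%), 1 had an unadjusted p under 0.05 (2.22%) and 1 did not overlap (6.05%). That member was Rtp4, at 43.4, 27.4, 71.2, 81.8, 125 and 122 TPM, with a difference of 1.27 ± 0.38 and an adjusted p of 1. In hypoxia 36 members were above 0 (38.7%), with a median of 0.81. With single mice left out it ranged from -0.11 (without KO-301) to 1.58. None passed (0%), 2 had an unadjusted p under 0.05 (4.43%) and 1 did not overlap (10.2%), which was Igtp. Igtp stood at 8.78, 10.1, 2.58, 10.4, 22.7 and 111 TPM, with HET-102 and KO-176 close together. Its low value in HET-129 was in 1 library, against 30.6 TPM in normoxic TRAP RNA and 50.7 TPM in hypoxic total RNA of that mouse.

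Bst2 was higher in ribosome-bound RNA than in total RNA, while most members, like most genes, were lower on this scale. With each library centred on its median gene, 10 members were called higher and 11 lower in normoxia. Of all 11420 genes, 3936 were then called higher and 1740 lower. Without centring, in normoxia, 28 of 39 members passed the test of TRAP minus total RNA within mice, against 65.6% of all 11420 genes tested in both fractions. Of these 27 were lower in TRAP RNA (58.8% of all genes) and 1, Bst2, was higher (6.75%). In hypoxia 32 passed (66.7% of all genes), 30 lower (58.9%) and 2, Bst2 and Zbp1, higher (7.84%). The share of members called lower was above that of all genes at both oxygen levels. The list itself was not tested. Of all genes, 9823 to 11207 reached 1 TPM in TRAP libraries, and the part of this in the shift was not tested. The members' median difference was -0.95 in normoxia and -0.89 in hypoxia, against -0.59 and -0.55 over all genes.

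Bst2 stood at 735, 728, 6275, 761, 2433 and 9112 TPM in normoxic TRAP RNA, above its total RNA level in 6 of 6 mice. The difference was 0.94 ± 0.12 in normoxia and 0.82 ± 0.06 in hypoxia, with adjusted p of 0.000233 and 2.82e-05 (limma), and it was 0.84 and 0.77 without HET-129 and KO-301. Isg15 was also higher in 6 of 6 mice in normoxia, by 0.23 ± 0.10 with an adjusted p of 0.0681, and was at 58.3, 43.9, 928, 93.8, 198 and 2735 TPM in TRAP RNA. Zbp1 was 0.37 ± 0.08 in hypoxia, higher in 6 of 6 mice with an adjusted p of 0.00387, and -0.22 ± 0.18 in normoxia. Ddx58 was the lowest member at both oxygen levels, and among the lower ones were also Cmpk2 in normoxia and Ifih1 in hypoxia. Ddx58 gave -2.68 ± 0.41 in normoxia and -2.27 ± 0.28 in hypoxia. Ifit2 gave -1.73 ± 0.14 and -1.55 ± 0.11, and Irf7 -1.67 ± 0.22 and -1.53 ± 0.21. All 3 were lower in 6 of 6 mice at both oxygen levels. Irf7 gave 24.5, 15.1, 193, 22.8, 55.6 and 185 TPM in normoxic TRAP RNA. Within the Ifit family the values parted, from -0.45 ± 0.09 for Ifit3 through -1.06 ± 0.13 for Ifit1 to -1.73 ± 0.14 for Ifit2 in normoxia.

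The direction of these values against total RNA depends on the scaling. With each library centred on its median gene, an alternative added once the data had been seen, the median over all genes moved to 0.19 in normoxia and 0.17 in hypoxia, with 3936 genes higher and 1740 lower against 771 higher and 6719 lower before in normoxia, and 3871 and 1966 against 895 and 6726 in hypoxia. The members' medians were then -0.16 and -0.17, still under those of all genes. In hypoxia 9 members were then called higher and 12 lower. Bst2 stayed higher in both, at 1.73 and 1.54. Among the members called before centring, Dhx58, Ifit3, Usp18 and Igtp changed sign in normoxia. In hypoxia Dhx58, Herc6, Ifit3, Ifit3b, Oas1a, Rtp4 and Usp18 did so. With centring, only Ifit3 and Usp18 of these passed the test in normoxia, and only Ifit3, Oas1a and Usp18 in hypoxia.

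**Figure D5:**
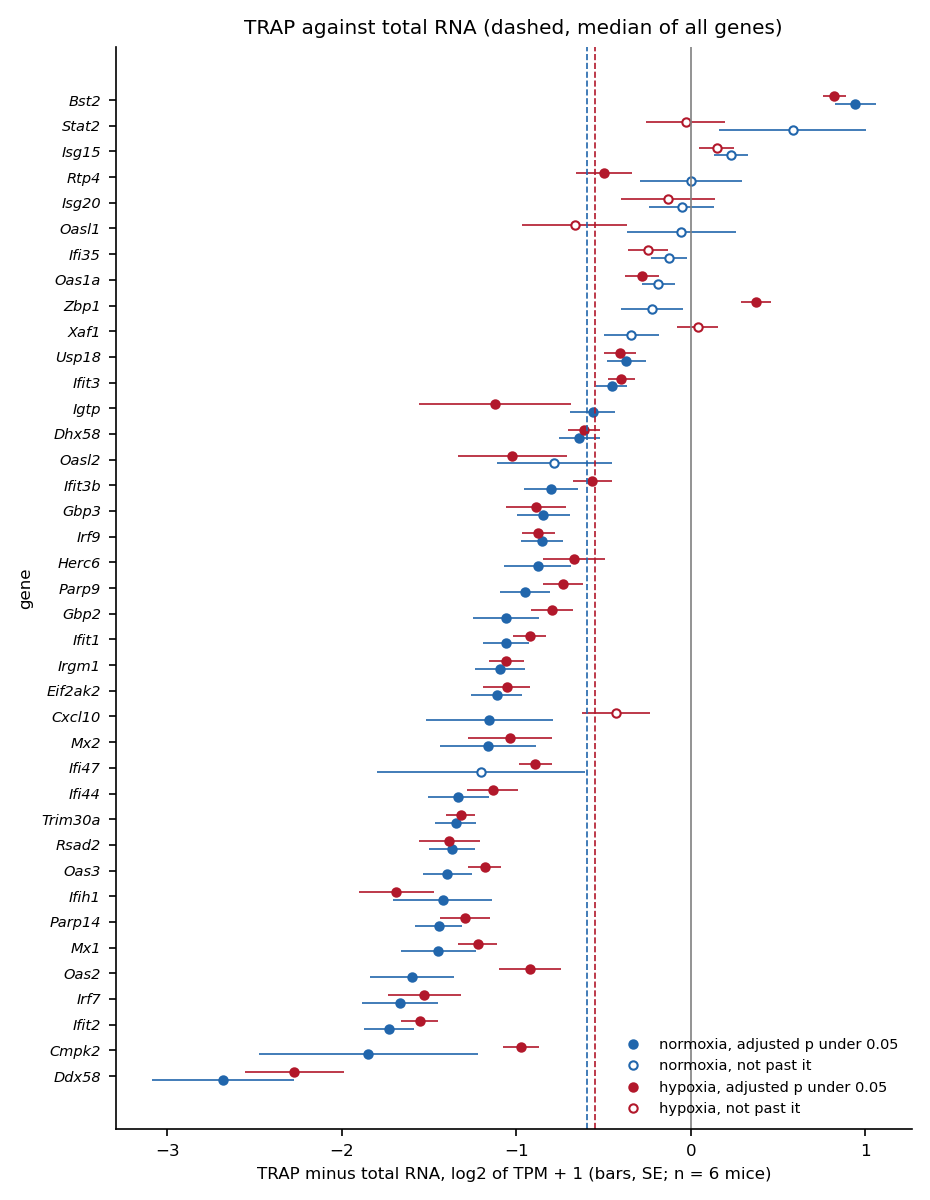
TRAP minus total RNA (log2 of TPM + 1) for the 39 members in normoxia (blue) and hypoxia (red), with SE bars over 6 mice, filled where the adjusted p was under 0.05. Dashed lines are the medians of all genes, -0.59 and -0.55. Bst2 lies farthest to the right, at 0.94 and 0.82, and Ddx58 farthest to the left.

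No member passed the test of whether the oxygen effect differed between the fractions. For TRAP minus total RNA 0 of 39 members passed (limma; 0% of all genes), and 3, Zbp1, Oasl1 and Xaf1, had an unadjusted p under 0.05 (5.46% of all genes). Zbp1 gave 0.60 ± 0.17 with an adjusted p of 0.815, positive in 5 of 6 mice. Oasl1 gave -0.61 ± 0.24. The members' median was 0.06 against 0.04 over all genes.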

How the data were processed

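Total and TRAP RNA of 6 mice at 2 oxygen levels gave 24 libraries. The submitters' processing notes name HISAT, DESeq2 and the build GRCm38, with versions not given in the sources used here. The values are TPM as deposited by the authors, a unit read from columns that sum to 999629 to 999969. Another 30 value columns of the tables were not used. Gene identifiers were matched to GENCODE M21 (233 without a match), and 27 symbols had been turned into dates. Strand was not stated, so overlapping antisense genes cannot be told apart.

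Here log2(TPM + 1) was fitted with limma 3.58.1 (trend and empirical Bayes moderation) in R 4.3.3 with the data.table package (1.17.8). Genes needed 1 TPM in 3 libraries of a fraction, and p-values are two-sided with Benjamini-Hochberg adjustment over all genes tested. Tables and figures used Python 3.11.15, pandas 2.3.3 and matplotlib 3.10.9. Oxygen and TRAP minus total comparisons had the mouse as a block, because libraries share a mouse by label. Deviations of the same mouse across oxygen levels had correlations of 0.565 to 0.795 (total RNA) and 0.397 to 0.717 (TRAP RNA), against -0.589 to 0.0971 and -0.501 to 0.118 for other mice of the genotype. Genotypes were compared between mice. The fits were run on simulated data in which genes changed between oxygen levels only, with a spread between mice below that of most members. The genotype comparisons were not tested in this way.

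The members and lists were chosen with earlier results of these data known. All called members were to be named, but 28 to 32 were called in TRAP minus total RNA, so there full values are given for those the text turns on and counts for the rest. Alternatives were quantile normalisation, rescaling without mitochondrial and ribosomal protein genes, a pseudocount of 0.1, other filters, no block and mice left out. Centring on the median gene was chosen after seeing the data.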

Additional observations from a re-analysis of the deposited data

Results flagged for a closer look

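Over the 39 members, 156 sets of 6 mouse differences in all were searched for a mouse far from the others by Dixon's criterion, and chance flags about 1 in 20. There were 16 such values, 9 of them in HET-129, and their causes were not tested.

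In the oxygen change of TRAP RNA, HET-129 stood apart for Cmpk2 at 4.09 (others -0.99 to 0.52), for Ifi47 at 3.92 (others -0.37 to 0.63) and for Igtp at -3.14 (others -0.25 to 0.58). In TRAP minus total RNA in normoxia, HET-129 stood apart for Cmpk2 at -5.8 (others -1.48 to -0.09), Ifi47 at -4.84 (others -0.95 to 0.82), Mx2 at -2.77 (others -1.09 to -0.52) and Usp18 at -0.84 (others -0.35 to -0.19). In hypoxia it did so for Igtp at -3.85 (others -0.98 to -0.03) and Ifi44 at -1.84 (others -1.16 to -0.86). For Cmpk2, Ifi47 and Igtp 1 TRAP library of HET-129 was low while its total RNA was not.

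The other 7 values, all TRAP minus total RNA, were in 5 mice. KO-281 stood apart for Eif2ak2 at -0.4 in normoxia (others -1.52 to -1.13) and -0.39 in hypoxia (others -1.38 to -1.07). KO-301 stood apart for Oasl2 at 1.22 in normoxia (others -1.72 to -0.69) and Ifih1 at -2.87 in hypoxia (others -1.67 to -1.32). In hypoxia HET-97 stood apart for Irf9 at -0.5 (others -1.05 to -0.87), HET-102 for Ifit3b at -0.34 (others -0.68 to -0.57) and KO-176 for Ifit3 at -0.64 (others -0.42 to -0.29).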

How the results depend on the processing

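The members' count called for hypoxia in total RNA was 1. It became 2 with centring on the median gene and 2 with quantile normalisation. It was 0 without the replicate block, 0 without HET-129 and KO-301, and 0 to 1 with single mice left out. Over all genes, too, 0 were called higher and 0 lower without the block, and fewer were called with mice left out. Without the replicate block the members called in TRAP minus total RNA fell to 8 in normoxia and 6 in hypoxia, while of all 11420 genes 459 higher and 5117 lower, and 541 higher and 5253 lower, were still called. With centring, 21 members were called in hypoxia, beside 3871 genes higher and 1966 lower, and the median TRAP minus total difference was -0.16 in normoxia and -0.17 in hypoxia. Centring turned 11 single values of TRAP minus total RNA above 0, namely Dhx58 (0.15 in normoxia, 0.10 in hypoxia), Ifit3 (0.34, 0.32), Usp18 (0.42, 0.31), Igtp (0.23 in normoxia) and, in hypoxia, Herc6 (0.0476), Ifit3b (0.15), Oas1a (0.44) and Rtp4 (0.22). Of these values, only those of Ifit3, Usp18 and Oas1a passed the test with centring. The median oxygen change in fl/fl mice was 0.0444 with centring in total RNA, and in TRAP RNA 0.0507 with centring and 0.13 without HET-129 and KO-301. The median difference of oxygen effects between genotypes in total RNA was 0.14 with centring and 0.26 without HET-129 and KO-301.

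With single mice left out, the members' median ranged, for fl/fl minus +/fl, from -0.30 to 1.25 in normoxic and -0.12 to 1.49 in hypoxic total RNA, and from -0.21 to 1.35 and -0.11 to 1.58 in TRAP RNA. For the oxygen change it ranged from -0.09 to -0.02 (total) and -0.07 to 0.09 (TRAP) over 6 mice, -0.20 to -0.0883 and -0.18 to 0.16 in controls, and 0.0458 to 0.0637 and 0.0668 to 0.13 in fl/fl mice. Between genotypes this change differed by 0.14 to 0.23 (total) and -0.04 to 0.27 (TRAP), and between fractions by 0.00 to 0.12. For TRAP minus total RNA it ranged from -1.04 to -0.77 in normoxia (27 to 30 members called) and -0.88 to -0.83 in hypoxia (29 to 32 called). The causes were not tested. TPM gives no depth, and the size of genotype difference that 3 mice a group could detect was not measured.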
